A study of Drosophila melanogaster with 4 samples.

Results

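In dissected intestines of female flies (*Drosophila melanogaster*), 69 transcripts of 68 genes stood at 50 TPM or more in the wild-type strain and at no more than its mean divided by 2 in a kdm5 mutant. TPM is a transcript's share of all transcripts in a library, corrected for its length and scaled to a total of 1000000. The 69 were chosen from the 1761 transcripts of the deposited table by the mean of the w1118 libraries (at least 50 TPM, and at least 2 times the mutant mean). A further 24 transcripts that met both limits were left out by name, among them Jonah proteases, lysozymes and peptidoglycan recognition proteins. The mutant flies carried the kdm5 alleles k6801 and 10424, and the other flies were w1118, a white-eyed laboratory strain. Each genotype gave 2 libraries of total RNA, each from 30 intestines of females aged 3 to 5 days and kept at 25 degrees C. The labels do not say whether the samples of a genotype came from separate crosses, so the spread between them may be in part technical. One label field names the whole animal as the source, while another and the protocol name the intestine.

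Kdm5 is an enzyme of chromatin: it erases the methyl mark on lysine 4 of histone H3 that is found at active promoters. The fly midgut is lined by enterocytes, which secrete proteases, lipases and carbohydrate-cleaving enzymes into the lumen and take up the products through transporters in their apical membrane. Absorbed fatty acids are activated to acyl-CoA by synthetases, carried by acyl-CoA-binding proteins, and oxidised in mitochondria or, for very long chains, in peroxisomes. The single listed Kdm5 transcript gave 0.0768 and 0.0361 TPM in the mutant samples, against 1.43 and 0.639 TPM in the w1118 libraries, on the side that the labels give.

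All p-values in the authors' deposited table lie below 0.05, so the 69 had already been selected on this comparison. The same mutant and w1118 means then chose the 69, so their differences are given here as a description with no test. Of the 235 listed transcripts with at least 50 TPM in w1118, 93 (39.6%) were halved in the mutant, 24 of them of the families left out. A further 54 were lower by less than 2-fold, 7 were higher by less than 2-fold and 81 were at least doubled. Across the 69 the w1118 mean was 2.95 times the mutant mean at the median, which is a log2 ratio of -1.56 (mutant over w1118). The median log2 ratio was -0.77 over the 235 and 1.004 over all 1761 listed transcripts. The ratio ran from 2.004-fold lower (Ctns) to 41.9-fold lower (CG4563). It was under 3-fold for 35 of the 69, at least 5-fold for 11 and at least 10-fold for 2. On log2(TPM + 1) the standard error of a difference, from a limma fit to the whole table, had a median of 0.27 over the 69 (0.23 to 0.44). The fit used only transcripts already selected on this comparison, so these and all later standard errors may be too small. In bulk tissue, fewer cells that make a transcript and less of it per cell cannot be told apart.

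**Figure D1:**
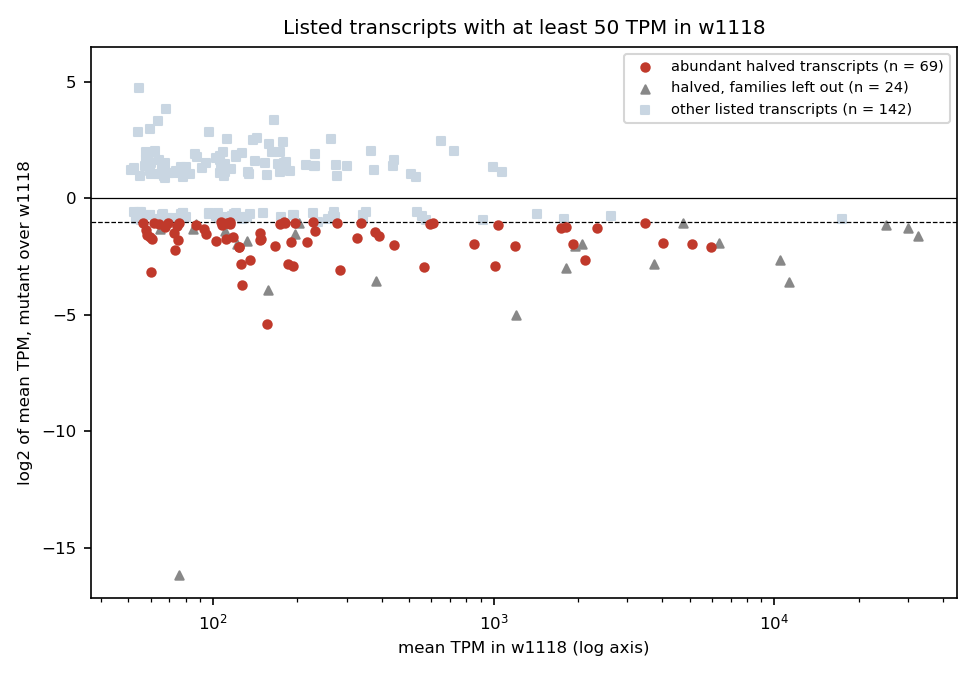
Log2 ratio of mean TPM (mutant over w1118, vertical axis) against mean TPM in w1118 (log axis) for the 235 listed transcripts with at least 50 TPM in w1118. Circles are the 69 halved transcripts, triangles the 24 halved transcripts of families left out and squares the other 142, and the dashed line marks the halving limit at -1.

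The 69 together made up 1.39% and 1.23% of all TPM in mutant guts, against 4.45% and 4.005% in w1118 guts, with each library's total taken as complete. Their summed level was 13121 ± 1125 TPM in mutant guts and 42288 ± 3168 TPM in w1118 guts (SD, n = 2 each). The 12 transcripts at 1000 TPM or more in w1118 held 75.0% of that w1118 sum, and the 3 highest (CG12057, CG11911 and CG45080) held 35.7%. In all 69, both mutant libraries lay below both w1118 libraries, a count that the limits on the means nearly fix. Among the 235 abundant listed transcripts this held for 61.3%. In 41 of the 69 the lower w1118 library was at least 2 times the higher mutant library, a count that the choice on the means favours. No such share was computed for the 235 or for all listed transcripts.

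Peptidases gave 8 of the 69, with a median of 3.47-fold lower and a summed level of 3361 ± 148 TPM in mutant guts and 10509 ± 422 TPM in w1118 guts (SD, n = 2 each). These 8 and the other role groups were formed after the values were seen. CG11911, a serine protease of the trypsin fold (FBgn0031249, 2L, 320279 to 321248, minus strand, BDGP6.54), was the second most abundant of the 69. It had 1345 and 1296 TPM in mutant guts, against 5229 and 4971 TPM in w1118 guts. The replicates of CG11911 differed little within a genotype, and its ratio stayed between 3.76- and 3.96-fold lower with any 1 library left out. The trypsin thetaTry was at 1014 and 941 TPM in mutant guts, against 2523 and 2142 TPM in w1118 guts. The trypsin deltaTry was at 219 and 222 TPM in mutant guts, against 607 and 1094 TPM in w1118 guts. For deltaTry the spread lay in w1118, where replicate 2 was the higher. CG30031, another gene of the same trypsin cluster, was at 132 and 70.2 TPM in mutant guts, against 287 and 366 TPM in w1118 guts. The coding sequences of deltaTry, CG30031 and gammaTry (one of the transcripts left out) are near-identical, which is background and was not checked here. The division of reads among them is therefore uncertain. CG31343, a membrane alanyl aminopeptidase of the kind that trims peptides at the gut surface, was 2.22-fold lower, at 470 and 468 TPM in mutant guts, against 1178 and 900 TPM in w1118 guts. CG8299 (4.05-fold lower) and CG31266 (2.04-fold lower) are trypsin-like serine proteases, and CG7631 (3.71-fold lower) is an astacin-type metalloprotease.

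Separate lists of gut peptidases hold 3 of these 8. In them, the listed serine proteases lay on both sides, while the listed transcripts of the other peptidases were all lower in the mutant. Of 18 non-Jonah digestive serine proteases, 5 had a listed transcript: thetaTry and deltaTry were lower, and Phae1, Ser6 and Try29F were higher. Phae1 was at 763 and 520 TPM in mutant guts, against 133 and 192 TPM in w1118 guts. Of 34 other gut peptidases (31 matched to a gene), 7 had listed transcripts, and all 9 of these transcripts were lower, CG31343 among them (median log2 ratio -1.02). Over all 1761 listed transcripts, 41.2% were lower in the mutant and the median log2 ratio was 1.004.

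Lipases gave 5 of the 69, at 2469 ± 355 TPM summed in mutant guts and 5563 ± 26.3 TPM in w1118 guts (SD, n = 2 each). CG6295 and CG17192 belong to the family of pancreatic-type lipases, which cleave dietary triglycerides and phospholipids in the lumen. CG6295 was at 1864 and 1405 TPM in mutant guts, against 3285 and 3620 TPM in w1118 guts. CG17192 was at 793 and 756 TPM in mutant guts, against 1991 and 1634 TPM in w1118 guts. CG2772, an acid-type lipase, had the second largest ratio of the 69. It was at 9.84 and 9.17 TPM in mutant guts, against 122 and 131 TPM in w1118 guts, with a log2 difference of -3.60 ± 0.28 (SE from limma on log2(TPM + 1)). Both groups of CG2772 values were narrow, and its ratio of 13.3-fold stayed between 12.8- and 13.8-fold with any 1 library left out. CG6296 and CG31091, both lipases, were 3.40- and 3.36-fold lower. A separate list of 37 names for lipid digestion, uptake and binding, matched to 34 genes, holds CG6295 and CG17192 but not the other 3 lipases. Of these 34 genes, 10 had listed transcripts, of which 10 transcripts were lower, against 41.2% of all listed transcripts, and 6 higher (median log2 ratio -0.92). Other lipases of that list lay on the higher side. CG8093 was at 536 and 404 TPM in mutant guts, against 35.4 and 83.9 TPM in w1118 guts, for its more abundant transcript (FBtr0087401). Lip3 was at 49.0 and 41.6 TPM in mutant guts, against 0.289 and 0.230 TPM in w1118 guts. CG6271 was at 5.11 and 2.66 TPM in mutant guts, against 0.420 and 0.864 TPM in w1118 guts. The lipase brummer (bmm, the triglyceride lipase of lipid droplets) lay just outside the halving limit, at 1.91-fold lower by its means. Its groups overlapped, at 17.5 and 40.7 TPM in mutant guts, against 72.4 and 38.5 TPM in w1118 guts.

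Genes of fatty acid activation and peroxisomal oxidation gave 7 of the 69, with a median of 6.34-fold lower. Acbp3, an acyl-CoA-binding protein of 84 residues (FBgn0250836, 3L, 7130874 to 7131505, plus strand), was the most abundant of them. It was at 391 and 275 TPM in mutant guts, against 2430 and 1795 TPM in w1118 guts, 6.34-fold lower, with a log2 difference of -2.67 ± 0.26 (SE). CG4563, an acyl-CoA synthetase-like enzyme (FBgn0035006, 2R, 24451084 to 24453040, minus strand), had the largest ratio of all 69. It was at 5.39 and 2.03 TPM in mutant guts, against 153 and 158 TPM in w1118 guts. Its mutant libraries differed by more than 2-fold, so the ratio of 41.9-fold was 28.8-fold without mutant replicate 2 and 76.7-fold without mutant replicate 1. A related enzyme, CG4830, was at 15.2 and 27.6 TPM in mutant guts, against 172 and 100.2 TPM in w1118 guts. The very-long-chain acyl-CoA synthetase bubblegum (bgm) was the least abundant of the 69, at 22.6 and 31.9 TPM in mutant guts, against 67.2 and 46.0 TPM in w1118 guts.

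In the peroxisome itself, 2 acyl-CoA oxidases, which catalyse the first step of peroxisomal beta-oxidation, and the fatty acid importer Abcd3 were halved. The oxidase CG17544 was at 7.17 and 6.10 TPM in mutant guts, against 95.5 and 24.9 TPM in w1118 guts. The w1118 libraries were far apart, and the ratio of 9.07-fold was 3.75-fold without w1118 replicate 1 and 14.4-fold without w1118 replicate 2. Acox57D-d was at 52.8 and 55.4 TPM in mutant guts, against 119 and 111 TPM in w1118 guts. Its neighbour Acox57D-p, listed at a low level, was at 2.50 TPM on average in mutant guts and 5.55 TPM in w1118 guts. Abcd3 was at 80.0 and 82.7 TPM in mutant guts, against 198 and 147 TPM in w1118 guts.

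Membrane transporters were the largest group with a stated role, with 10 of the 69 and a median of 3.00-fold lower. Their summed level was 424 ± 1.09 TPM in mutant guts and 1357 ± 373 TPM in w1118 guts (SD, n = 2 each). The mutant sums were therefore nearly equal, and the w1118 sums were 1621 and 1093 TPM. Single transporters differed more between the mutant libraries, in both directions, with replicate 1 the higher in 4 of the 10. CNT2 was at 28.0 and 17.4 TPM there and NAAT1 at 12.5 and 19.0 TPM, so the small SD of the sum does not describe each transporter. The most abundant was dmGlut, a glutamate transporter, at 135 and 122 TPM in mutant guts, against 500 and 283 TPM in w1118 guts. NAAT1, which takes up essential amino acids from the gut lumen, was at 12.5 and 19.0 TPM in mutant guts, against 97.5 and 49.4 TPM in w1118 guts. The amino acid transporter CG8785 was at 41.3 and 43.7 TPM in mutant guts, against 171 and 123 TPM in w1118 guts. The ratios were 4.67-fold lower for NAAT1 and 3.46-fold lower for CG8785. Picot, a phosphate cotransporter of the same superfamily as dmGlut, was at 42.1 and 45.2 TPM in mutant guts, against 174 and 123 TPM in w1118 guts.

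CG9825, also of that superfamily (FBgn0034783, 2R, 22837361 to 22839291, plus strand), had the largest ratio among the transporters. It was at 23.05 and 30.1 TPM in mutant guts, against 212 and 159 TPM in w1118 guts, 6.98-fold lower. All 5 other listed transcripts within 10 kb of CG9825, from CG12490, CG9826 (2 transcripts), CG30265 and MFS1, were lower too. MFS1, a transporter of the major facilitator superfamily, was at 2.65 and 4.43 TPM in mutant guts, against 48.0 and 45.6 TPM in w1118 guts. It missed the level limit for the 69 by a few TPM. CG12490 was at 0.0535 and 0.152 TPM in mutant guts, against 8.19 and 5.08 TPM in w1118 guts. In each of the 6 listed transcripts of this stretch both mutant libraries lay below both w1118 libraries, against 35.9% of all 1761 listed transcripts. CG9825 itself was chosen for being lower, and the stretch was picked after its values were seen.

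The other halved transporters carry different cargo. Mrp5, an ATP-driven exporter, was 2.88-fold lower, and the sodium-proton exchanger Nha1 was 2.46-fold lower. The nucleoside transporter CNT2 was 2.55-fold lower, CG7912, of the sulfate transporter family, 2.95-fold lower and the lysosomal cystine exporter Ctns 2.004-fold lower. In a list of 39 amino acid, peptide and sugar transporters (37 matched to a gene), 7 had listed transcripts. Of these 8 transcripts 7 were lower (median log2 ratio -2.01), against 41.2% of all listed transcripts. MFS3 was the higher one.

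Other enzymes gave 6 genes. Alp10 and Alp9, alkaline phosphatases encoded by neighbouring genes, were at 333 and 245 TPM (Alp10) and at 156 and 121 TPM (Alp9) in mutant guts. In w1118 guts Alp10 was at 646 and 568 TPM and Alp9 at 418 and 340 TPM. Another alkaline phosphatase, Alp4, lay just outside the halving limit at 1.997-fold lower, with 114 and 123 TPM in mutant guts, against 201 and 272 TPM in w1118 guts. MsrA, the methionine sulfoxide reductase that repairs oxidised methionine, was 4.26-fold lower. Its 2 transcripts among the 69 (FBtr0075553 and FBtr0330177) share all 4 values, 33.8 and 24.4 TPM in mutant guts, against 146 and 102 TPM in w1118 guts, so they are 1 measurement. A less abundant MsrA transcript (FBtr0075554) averaged 4.89 TPM in mutant guts and 14.4 TPM in w1118 guts. The vanin-like hydrolase was 2.05-fold lower, the flavin-containing monooxygenase Fmo-2 2.10-fold lower and CG8745, an aminotransferase, 2.08-fold lower.

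Regulatory and structural proteins gave 4 genes. Sugarbabe (sug), a zinc-finger transcription factor known for its induction by dietary sugar, was at 43.7 and 59.4 TPM in mutant guts, against 185 and 108 TPM in w1118 guts. Gp150, a leucine-rich repeat membrane protein that acts in Notch signalling, was at 21.6 and 42.9 TPM in mutant guts, against 91.2 and 57.3 TPM in w1118 guts. The gap between the groups of Gp150 was narrow, 42.9 TPM in the highest mutant library against 57.3 TPM in the lowest w1118 library. Chd64, a calponin-like actin-binding protein, was 2.06-fold lower, and Rtnl1, which shapes the endoplasmic reticulum, 2.15-fold lower.

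**Figure D2:**
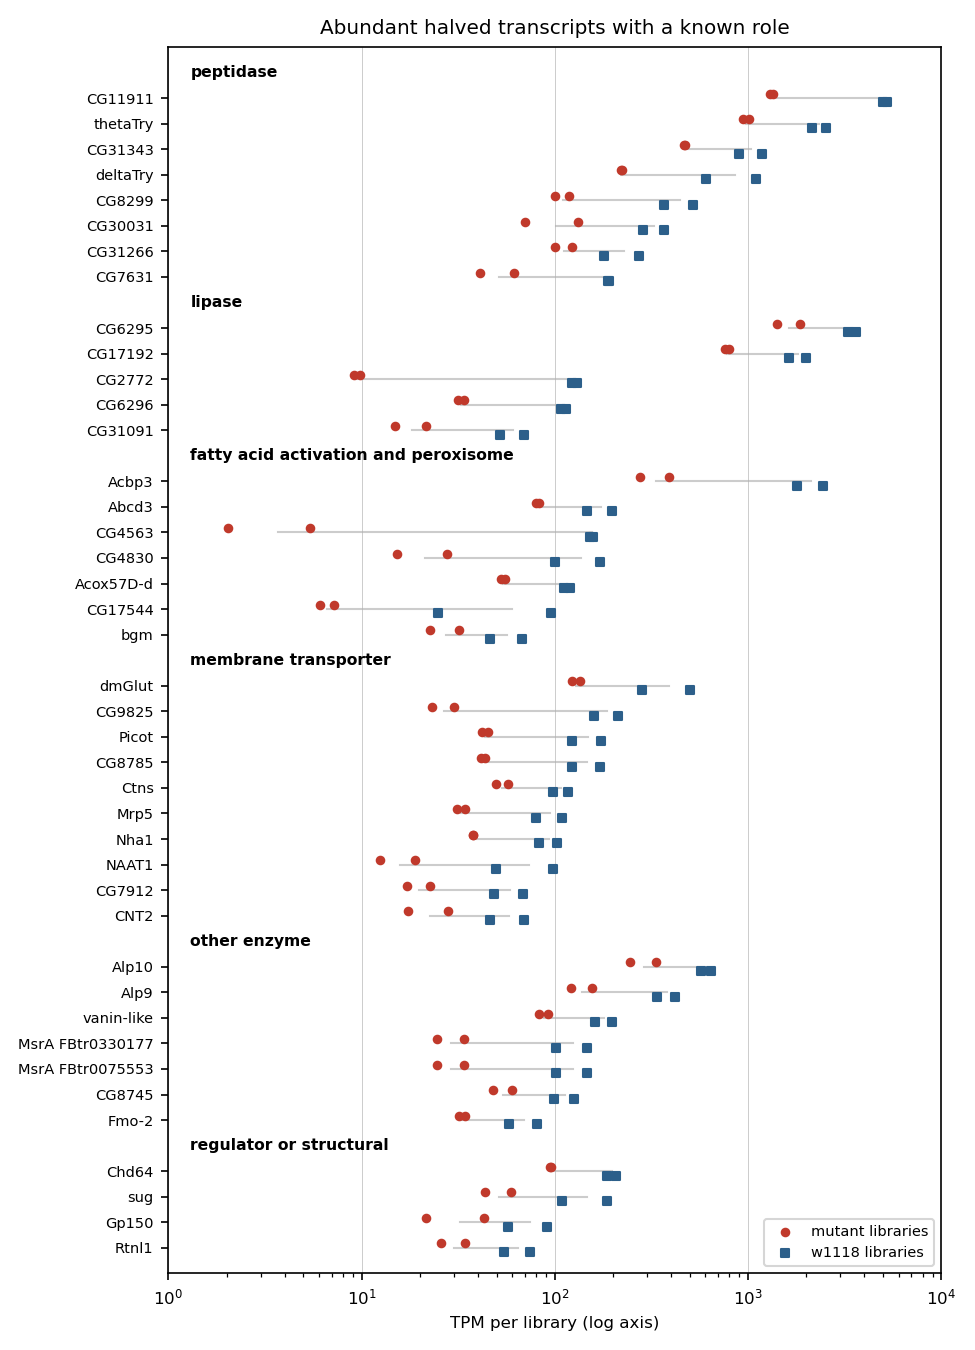
TPM in each library (log axis) of the abundant halved transcripts with a known role, grouped by role and ordered by w1118 level. Circles are the 2 mutant libraries, squares the 2 w1118 libraries, and grey lines join the genotype means; CG4563, CG2772 and CG17544 have the longest lines.

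For 28 genes no role is given here, and they held 47.2% of the summed w1118 level of the 69. Their summed level was 5471 ± 494 TPM in mutant guts and 19974 ± 1402 TPM in w1118 guts (SD, n = 2 each). The most abundant of all 69 transcripts was CG12057 (FBgn0030098, X, 9191657 to 9192548, plus strand), which encodes 219 residues. It was at 1185 and 1617 TPM in mutant guts, against 6554 and 5384 TPM in w1118 guts, 4.26-fold lower. CG5767 was at 541 and 447 TPM in mutant guts, against 2071 and 1753 TPM in w1118 guts. CG31041 was at 271 and 300 TPM in mutant guts, against 1199 and 1195 TPM in w1118 guts. The w1118 replicates of CG31041 were almost equal. CG18404, at 917 and 542 TPM in mutant guts, against 1798 and 1689 TPM in w1118 guts, was the other of these with over 1000 TPM in w1118 that encodes more than 100 residues. The single noncoding member, CR43310, is annotated as a pseudogene, was 2.02-fold lower and lies at the halving limit.

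Protein length was not used to choose the 69. In the annotation, 7 of the 28 genes with no role given encode under 100 residues, with ratios from 2.10- to 8.33-fold lower. CG45080 (55 residues, 3R, 13318991 to 13319270, minus strand) was at 1313 and 816 TPM in mutant guts, against 4108 and 3950 TPM in w1118 guts. CG34212 (48 residues) was at 191 and 79.5 TPM in mutant guts, against 989 and 1029 TPM in w1118 guts. CG44142 (83 residues), which lies 5803 bp from CG45080, was at 45.8 and 22.4 TPM in mutant guts, against 308 and 260 TPM in w1118 guts. CG43680 (49 residues) was at 34.2 and 17.2 TPM in mutant guts, against 207 and 180 TPM in w1118 guts. These 4 had close w1118 replicates, while mutant replicate 1 stood above mutant replicate 2 in each, as it did in 5 of the 7. In CG3348 and CG43679 mutant replicate 2 was the higher, at 91.4 and 172 TPM and at 26.5 and 31.1 TPM in mutant guts, against 276 and 277 TPM and 82.7 and 52.3 TPM in w1118 guts. Without mutant replicate 1 the ratio was 12.7-fold for CG34212 (7.45-fold with both) and 12.7-fold for CG44142 (8.33-fold with both). The other 3 were CG34301, CG43679 and CG3348, at 2.17-, 2.35- and 2.10-fold lower. CG13947, of 119 residues, was at 83.5 and 64.1 TPM in mutant guts, against 505 and 621 TPM in w1118 guts. Counting Acbp3, 8 of the 67 coding genes encode under 100 residues, against 9 of 136 genes of the abundant listed transcripts that were not halved. The median protein was 307 residues long among the halved genes and 305.5 among those others. The families left out by name were taken out of the halved genes only. These shares and medians are therefore not directly comparable, and they were not tested.

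The ratios of CG13078 and CG16826, both without a stated role, moved with single libraries. CG13078 was at 28.4 and 30.7 TPM in mutant guts, against 87.3 and 36.0 TPM in w1118 guts, so that its ratio of 2.09-fold was 1.22-fold without w1118 replicate 1. CG16826 was 3.61-fold lower, and between 2.56- and 6.10-fold lower with any 1 library left out, with 40.0 and 16.8 TPM in mutant guts, against 94.6 and 111 TPM in w1118 guts.

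**Figure D3:**
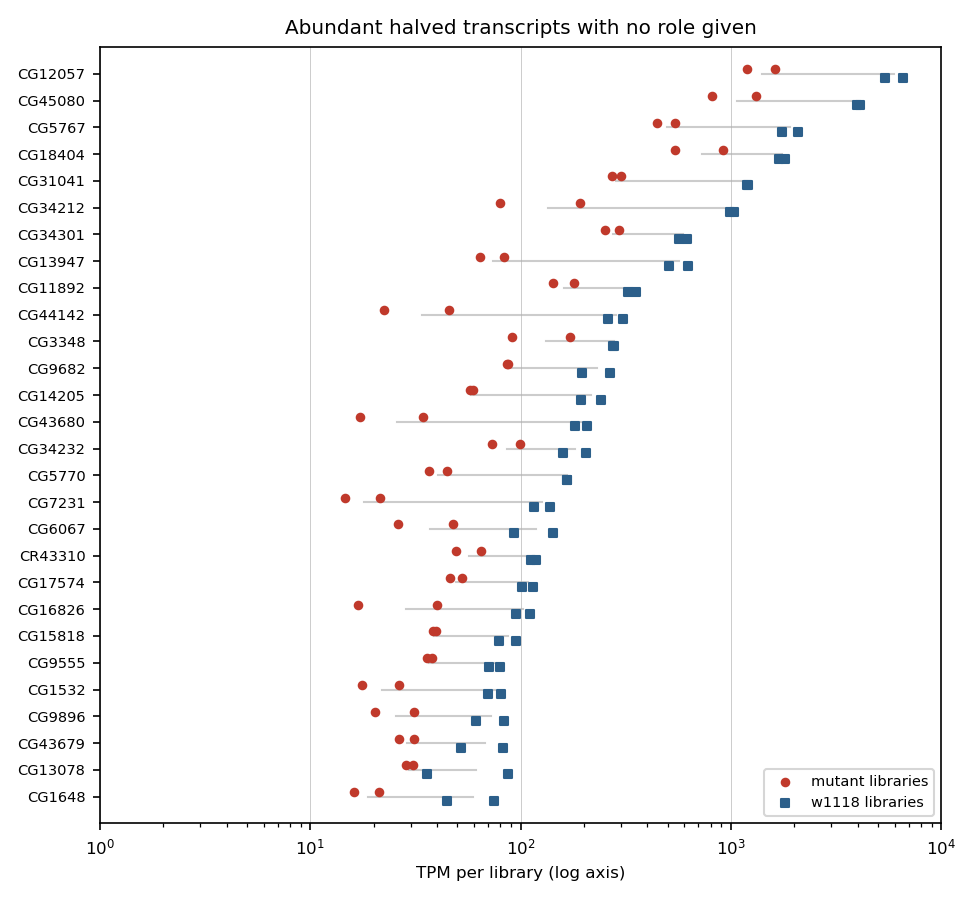
TPM in each library (log axis) of the 28 abundant halved transcripts with no role given, ordered by w1118 level, with circles for the 2 mutant libraries and squares for the 2 w1118 libraries. CG12057 and CG45080 are the most abundant, and CG34212, CG44142 and CG43680 show wide mutant spread and narrow w1118 spread.

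Several halved genes lie side by side. Within 10 kb of another, 15 of the 68 genes (22.1%) formed 7 loci, against 22 of 136 genes (16.2%) of the abundant listed transcripts that were not halved. Each share counts only neighbours of the same set, so it depends on the size of the set. Families left out by name were removed from the halved genes but not from the others. These shares are therefore not directly comparable, and no test was made of them. The loci were the trypsins thetaTry, CG30031 and deltaTry (2R, 11341714 to 11356128), the pair CG5770 and CG5767 (2R), Alp10 and Alp9 (3L), CG43679 and CG43680 (3L), CG44142 and CG45080 (3R), the lipases CG6296 and CG6295 (3R) and the pair CG9682 and CG18404 (3R). Since the division of reads between CG30031 and deltaTry is uncertain, they may not be separate cases. Neighbours in a locus differed in level: CG5770 was at 36.6 and 44.5 TPM in mutant guts, against 167 and 167 TPM in w1118 guts, below CG5767. Both of this pair had similar ratios, 4.11-fold lower for CG5770 and 3.87-fold for CG5767. CG43680 and CG43679, 1768 bp apart, had unlike ratios, 7.53-fold and 2.35-fold lower. Listed transcripts within 10 kb that were not among the 69 went both ways, 24 lower and 25 higher, while 41.2% of all listed transcripts were lower. Amyrel, an alpha-amylase relative 2624 bp from Picot, averaged 126 TPM in mutant guts and 3.53 TPM in w1118 guts, the opposite direction to Picot. The 68 genes were spread over 2L (14), 2R (20), 3L (8), 3R (19) and X (7). Of the 68, 8 have exons that overlap a gene on the other strand (deltaTry, CG3348, Abcd3, CG6067, Acox57D-d, CR43310, Ctns and Gp150). No source used here gives the strand setting of the counting, so their reads and those of the partner cannot be told apart.

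Among the 68 genes 10 had other listed transcripts, 18 in all, of which 17 were lower and 1 higher, while 41.2% of all listed transcripts were lower. At least 2-fold lower were 8 of these 18, or 7 of 17 with transcripts that share all 4 values counted once. The share at least 2-fold lower among all listed transcripts was not computed. Transcripts of a gene can share exons, and so reads, with the one chosen for being halved. The choice therefore favours lower values in these 18, and their count is not directly comparable with the 41.2%. Sums over a gene's listed transcripts include the one chosen for being halved, so the choice partly fixes them. Listed transcripts of Mrp5 summed to 62.4 and 73.0 TPM in mutant guts, against 227 and 158 TPM in w1118 guts. All 4 of them were at least 2-fold lower, but FBtr0083859 and FBtr0330036 share all 4 values, which leaves 3 measurements. CNT2, with all 3 annotated transcripts listed, summed to 45.5 and 36.3 TPM in mutant guts, against 119 and 81.8 TPM in w1118 guts. CG1532 had transcripts with unlike ratios: its halved transcript (FBtr0077268) was 3.42-fold lower, but the other (FBtr0339633) averaged 78.8 TPM in mutant guts and 121 TPM in w1118 guts, so its listed total was 1.95-fold lower. CG17574 had a transcript that was higher. Its halved transcript (FBtr0306580) was at 52.5 and 46.2 TPM in mutant guts, against 114 and 102 TPM in w1118 guts, while another (FBtr0306582) was at 73.2 and 88.2 TPM in mutant guts, against 20.5 and 23.2 TPM in w1118 guts. The 6 listed transcripts of CG17574 together stood at 204 and 225 TPM in mutant guts, against 278 and 252 TPM in w1118 guts, 1.24-fold lower. For CG17574 the halving therefore describes a transcript and not the listed total of the gene, and reads of overlapping transcripts may be divided wrongly.

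The choice of the 69 rests on means of the same replicate values, so the counts by replicate that follow are a description. In w1118, replicate 1 was higher than replicate 2 for 56 of the 69 transcripts, against 70 of the 142 abundant listed transcripts that were not halved. In the mutant, replicate 1 was the higher for 38 of the 69, against 51 of the 142. The 142 include the 81 that were at least doubled in the mutant, and the families left out by name were not removed from them. All 10 transporters and all 7 transcripts of the other enzymes were higher in w1118 replicate 1, at a median of 1.40 times and 1.26 times replicate 2. A w1118 difference of over 1.5 times was found in 13 of the 69, and a mutant difference of over 1.5 times in 17. With w1118 replicate 2 alone as the w1118 value, 49 transcripts met both limits, and with w1118 replicate 1 alone 89 did. Whether the halved transcripts differ from the others in this was not tested.

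**Figure D4:**
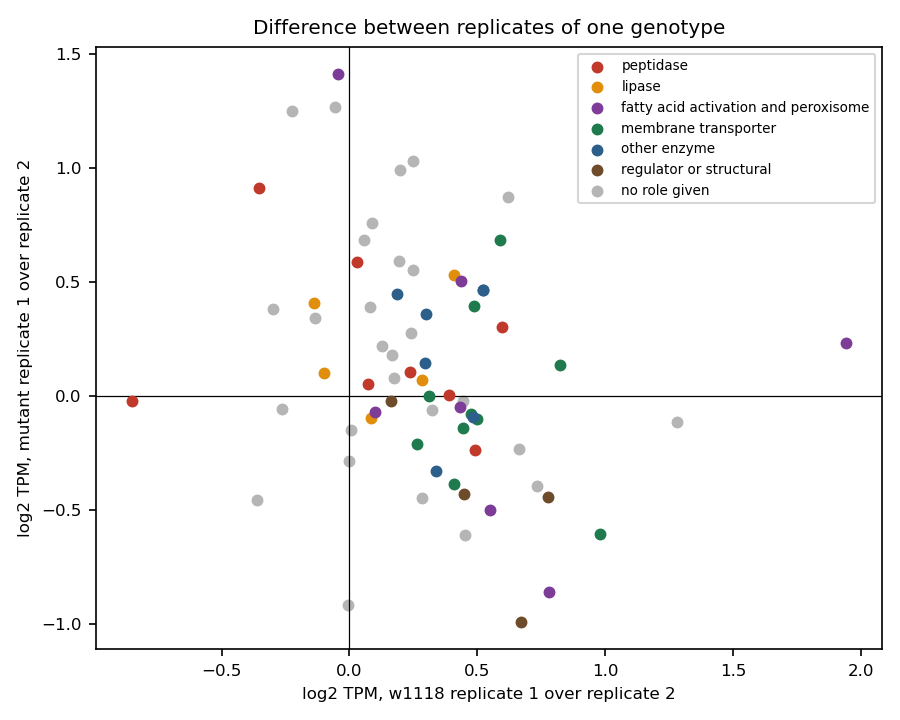
Log2 ratio of replicate 1 over replicate 2 in the mutant (vertical axis) against the same ratio in w1118 (horizontal axis) for each of the 69 transcripts, coloured by role. Most points (56 of 69) lie right of 0, and CG17544 lies farthest right.

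Transcripts at the limits show how sharp the choice is. Just inside the level limit were bgm, CNT2 and CG7912, with w1118 means of 56.6, 57.9 and 58.3 TPM. Just outside it were eIF4A, Oatp33Ea and MFS1, with w1118 means of 49.7, 49.1 and 46.8 TPM and ratios of 3.33-, 2.90- and 13.2-fold lower. Just inside the ratio limit were Ctns, CR43310 and CG31266 (2.004-, 2.022- and 2.038-fold lower), and just outside it were Alp4, bmm and Atpalpha (1.997-, 1.91- and 1.89-fold lower). For bmm the groups overlapped, with mutant replicate 2 above w1118 replicate 2.

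Marker genes of gut cell types were listed only in part, because the table holds selected transcripts, so an unlisted marker says nothing about its level. Of the enteroendocrine markers 5 of 12 were listed, and all 9 transcripts were lower, against 41.2% of all listed transcripts. Both Nplp2 transcripts share all 4 values, and the 8 different ones summed to 69.0 and 87.1 TPM in mutant guts, against 150.3 and 116 TPM in w1118 guts. Most of each sum was Nplp2 alone, at 45.0 and 54.8 TPM in mutant guts, against 91.8 and 64.9 TPM in w1118 guts. Of the copper cell and middle midgut markers 3 of 5 genes were listed (lab, dve and Ptx1), all 5 transcripts with a lower mean, 2 of Ptx1 with the same values. In every Ptx1 transcript the groups overlapped, with mutant replicate 2 above w1118 replicate 2 (5.04 against 4.70 TPM in the most abundant). The 4 different ones summed to 5.17 and 9.52 TPM in mutant guts, against 16.6 and 9.84 TPM in w1118 guts. Of 5 enterocyte markers, Myo31DF was lower and nub higher. Myo31DF was at 31.0 and 40.0 TPM in mutant guts, against 60.0 and 50.4 TPM in w1118 guts. The listed nub transcript had a low level, 1.16 and 2.14 TPM in mutant guts, against 0.502 and 0.551 TPM in w1118 guts. Of 8 stem cell and enteroblast markers (7 matched to a gene) only esg was listed, below 2.1 TPM in all 4 libraries. Of 20 visceral muscle markers 4 were listed, 2 higher and 2 lower, with sums of 134 and 178 TPM in mutant guts, against 283 and 192 TPM in w1118 guts. Of 12 Malpighian tubule markers 10 were matched by symbol and 5 of these were listed, with 3 transcripts higher and 5 lower. Their sums were 239 and 263 TPM in mutant guts, against 272 and 226 TPM in w1118 guts. These counts and sums leave out Nha1, which the marker list spells NHA1, so that it was not matched. Nha1 is one of the 69, at 37.8 and 37.8 TPM in mutant guts, against 103 and 83.1 TPM in w1118 guts. Fat body and haemocyte markers had 2 listed transcripts each, going both ways, summing to at most 38.2 TPM and 1.32 TPM in any library, and srp and the listed Mhc transcript were at 0 in w1118 replicate 1. No ovary or salivary gland marker was listed. The part of any of these cell types in the halved transcripts was not tested.

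The remaining lists held none of the 69. Of the listed transcripts, with shared values counted once, 3 of 11 for carbohydrate digestion were lower, 14 of 33 for carbon metabolism and 7 of 9 for metal transport and binding. Likewise lower were 2 of 9 for protein secretion, 3 of 3 for translation factors, 3 of 4 for the cytoskeleton and 0 of 1 for circadian and hormone genes. Over all 1761 listed transcripts 41.2% were lower, and the share for carbon metabolism (42.4%) was near that. Carbohydrate-digesting enzymes summed to 8899 and 6322 TPM in mutant guts, against 982 and 1763 TPM in w1118 guts.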

How the data were processed

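The authors deposited one table of 1761 transcripts with TPM for each of 4 libraries and a p-value per transcript, per the file headers. Cufflinks and DESeq are the tools in the submitters' processing notes, which assign them no step. Aligner, build, strand setting and any adjustment of the deposited p-values: not given in the sources used here. TPM keeps no depth, so library depth is unknown. Identifiers were matched to Ensembl release 115 (BDGP6.54; 1741 of 1761 matched), perhaps not the annotation the authors used, and positions and protein lengths come from it. No promoter, protein or other sequence was used here.

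Ratios are of mean TPM with no pseudocount. limma 3.58.1 with a mean-dependent prior (R 4.3.3) was fitted to log2(TPM + 1) of the whole table for standard errors only, and was tested on simulated data. Named transcripts were the 12 highest in w1118, the 12 with the largest ratio, 3 on each side of both limits, members of the gene lists, genes with another listed transcript, and Kdm5. Others were named after their values were seen. Members and lists were chosen with earlier results of these data known. The alternatives tried were other limits, a pseudocount, a rescaling, leaving out each library and a replicate block.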

Additional observations from a re-analysis of the deposited data

How the results depend on the processing

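The number of halved transcripts depends on its limits: 115 at a limit of 1.5 times, 34 at 3 times, and 41 when the lowest w1118 library had to be at least 2 times the highest mutant library, against 69 as reported. It was 103 at 25 TPM and 51 at 100 TPM. With 1 library left out it ran from 49 to 89, and the median log2 ratio of the 69 from -1.73 to -1.29. Rescaling each library to the TPM outside the list lowered mutant over w1118 by 0.15 on the log2 scale for every transcript, which gave 82 halved transcripts and a median of -1.71. For the 40 transcripts named by rule, 235 of 240 alternative ratios were within 1.5 times the reported one. The 5 others left out a library, in CG34212, CG44142, CG4563 and CG17544.

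With the replicate number as a block, the median limma standard error of the 69 was 0.30, against 0.27 with no replicate block. Libraries with the same number did not deviate together (correlation -0.19 over all listed transcripts), and the labels do not say that the numbers mark a shared batch. No call rests on the block, since no test was made. With 2 libraries per group and unknown depth, ratios of low mutant values such as that of CG4563 are imprecise.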
